A study of Mus musculus with 50 samples.

Results

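RNA was read in the wound bed of mouse digits whose distal terminal phalanx (P3) had been amputated, and cell migration was not measured. The genes described here are known from keratinocyte migration. They are the laminin-332 chain genes Lama3 and Lamb3, the integrin subunit genes Itga3, Itga5, Itga6, Itgb4 and Itgb6, and the plasminogen activation genes Plau and Plaur. These 9 genes were chosen by name from the 21954 genes of the deposited tables, with earlier results of these data known. All 9 passed the filter on low counts in every comparison. Their levels came from RNA-seq of 41 digits of male C57Bl/6 mice aged 9 to 10 weeks. Digit 3 of the hindlimbs was amputated under isoflurane, and digits were imaged by microCT before surgery and right after it. The study's methods name no further treatment of these mice. In 29 non-regenerative digits more than 67% of P3 was to be removed, and the wound bed was taken at 0 hours (at the time of amputation), after 3, 6, 12 and 24 hours, and after 3, 7, 14 or 21 days, with 3 digits at each time point and 5 at 7 days. In 12 intermediate digits 34% to 66% was to be removed, and 3 digits each were taken at 0 hours, 24 hours, 14 days and 21 days. The labels put the non-regenerative digits at levels of 60% to 80%, of which 17 lie above 67%, and the intermediate digits at 41% to 55%. Regenerative digits were not analysed here. Every digit of both groups was amputated, so the digits at 0 hours are the only baseline.

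Laminin-332 is the basement membrane protein on which the basal keratinocytes of the epidermis rest. Its chains include alpha 3 and beta 3. In resting skin, integrin α6β4 ties keratinocytes to it in hemidesmosomes, while integrin α3β1 binds it in moving cells. After a wound, keratinocytes at the edge loosen their hemidesmosomes, lay down new laminin-332 and crawl over a provisional matrix of fibrin, fibronectin and tenascin, which integrins α5β1 and αvβ6 bind. Urokinase (Plau), held at the cell surface by its receptor (Plaur), turns plasminogen into plasmin, which cuts fibrin ahead of the cells.

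The wound bed is a mixture of cell types and was not sorted. Each digit's library held between 1468749 and 13011782 expected counts. Replicate 2 of the non-regenerative digits at 7 days and replicate 2 at 14 days stood apart from their groups, with a highest Spearman correlation to a digit of their own group of 0.744 and 0.680, against 0.834 to 0.976 in the other 39 digits. Replicate 3 at 3 hours was the shallowest library, with 1468749 counts. The labels of 10 digits give the same mark, date and side as another digit's, in 5 pairs that each span 2 groups. One pair joins replicate 1 of the non-regenerative digits at 0 hours to replicate 3 at 12 hours, 2 join intermediate digits at 0 hours to replicates 1 and 2 at 12 hours, one joins replicate 3 at 3 days to replicate 1 at 7 days, and one joins intermediate replicate 1 to non-regenerative replicate 3 at 14 days. Whether a shared mark means a shared animal was not tested. The labels also carry a date without saying of what. It lies in July or August for 24 digits (called the earlier period here) and between November and January for 17 (the later period). All non-regenerative digits of the 3 and 12 hour groups carry earlier dates, whereas 1 of the 3 digits at 0 hours does. The study's methods state 3 mice per time point, and p-values measure the spread between these digits.

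Promoter sequences of 5 of the 9 genes are reported here, with 8 promoters in all. Each covers 250 bases before and 50 bases after a RefSeq transcription start in GRCm38.p6. They were searched on both strands for TGANTCA, a pattern that takes in the AP-1 site TGA(C/G)TCA but also allows A or T in the middle. A match to this wider pattern was found in 2 of these 8 promoters and in 7.81% of the 32851 mouse promoters of the same length. One is the promoter of Plaur, the gene with the largest fold changes here, at chr7:24462233-24462532 on the plus strand. There the match, TGACTCA, starts 69 bases before the start. The other belongs to the second annotated start of Itga3, at chr11:95069149-95069448 on the minus strand. There the match starts 13 bases after it and reads TGAATCA, which is not TGA(C/G)TCA. Both are shown 5′ to 3′ with the match in capitals. A match describes these letters and does not show binding.
Plaur: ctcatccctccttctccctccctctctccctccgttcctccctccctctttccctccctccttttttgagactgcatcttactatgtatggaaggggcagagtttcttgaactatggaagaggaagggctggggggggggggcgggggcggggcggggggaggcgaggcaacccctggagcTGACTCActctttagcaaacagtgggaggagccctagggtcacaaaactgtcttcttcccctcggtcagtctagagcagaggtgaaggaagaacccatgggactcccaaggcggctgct
Itga3: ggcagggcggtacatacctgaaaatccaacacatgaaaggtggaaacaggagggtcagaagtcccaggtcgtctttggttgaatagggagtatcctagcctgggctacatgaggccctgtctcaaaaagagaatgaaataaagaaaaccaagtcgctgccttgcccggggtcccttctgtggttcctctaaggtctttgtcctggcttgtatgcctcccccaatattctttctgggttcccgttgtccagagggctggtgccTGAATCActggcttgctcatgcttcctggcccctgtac

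All 9 genes rose in the non-regenerative wound bed at 12 hours and again at 24 hours against 0 hours. The digits at 12 hours are labelled 64%, 64% and 67%, so none of them lies above 67%, and those at 0 hours are labelled 62%, 62% and 75%. Here a gene was called when edgeR's quasi-likelihood test gave it an adjusted p below 0.05 and its mean normalized count changed more than 2-fold. At 12 hours 9 of 9 were called higher, where 6.76% of all genes tested were called higher, and at 24 hours 9 of 9, where 5.57% were. Because the 9 genes were chosen with earlier results known, the shares of all genes are given as a description and do not test the set. Every digit at 12 hours lay above every digit at 0 hours for all 9, as for 22.6% of all genes, and at 24 hours again for all 9, against 20.3%. At 6 hours 5 of 9 were called higher (Itga3, Itga6, Itgb6, Plau and Plaur), against 3.23% of all genes, and this count dropped to 1 (Plaur) without replicate 2 or 3 at 0 hours or replicate 2 at 6 hours. With the date period as a term in each of these 2-group tests, added after the data were seen, the same 5, 9 and 9 genes were called at 6, 12 and 24 hours, against 3.71%, 4.31% and 5.63% of all genes, whereas 1 fit of all 41 digits with that term kept 1, 1 and 4. The median log2 fold change of the 9 genes was 1.28, 1.90 and 1.80 at 6, 12 and 24 hours, and that of all genes was -0.03, -0.03 and -0.04. At 3 hours edgeR called none of the 9 and 0% of all genes, with 3 of the 9 at an unadjusted p below 0.05, where 10.8% of all genes were. At 3 days edgeR called none of the 9, against 0.557% of all genes higher, with 4 of the 9 at an unadjusted p below 0.05, where 11.1% of all genes were. DESeq2 called none at 3 hours and called Itga5 and Plaur at 3 days, and limma called none at either time. The share of all genes that DESeq2 called is not given here for single comparisons. Over the non-regenerative comparisons together DESeq2 called more genes than edgeR. At 3 days edgeR without the count filter called Plaur, against 0.75% of all genes higher, and with the date period as a term it called Lama3 and Itga5, against 1.41%. In bulk tissue, more cells of a type and more RNA per cell cannot be told apart. All comparisons with 0 hours share the same 3 control digits. The plot of the 9 genes in each digit shows a rise between 6 and 24 hours and levels near those of 0 hours at 21 days.

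**Figure D1:**
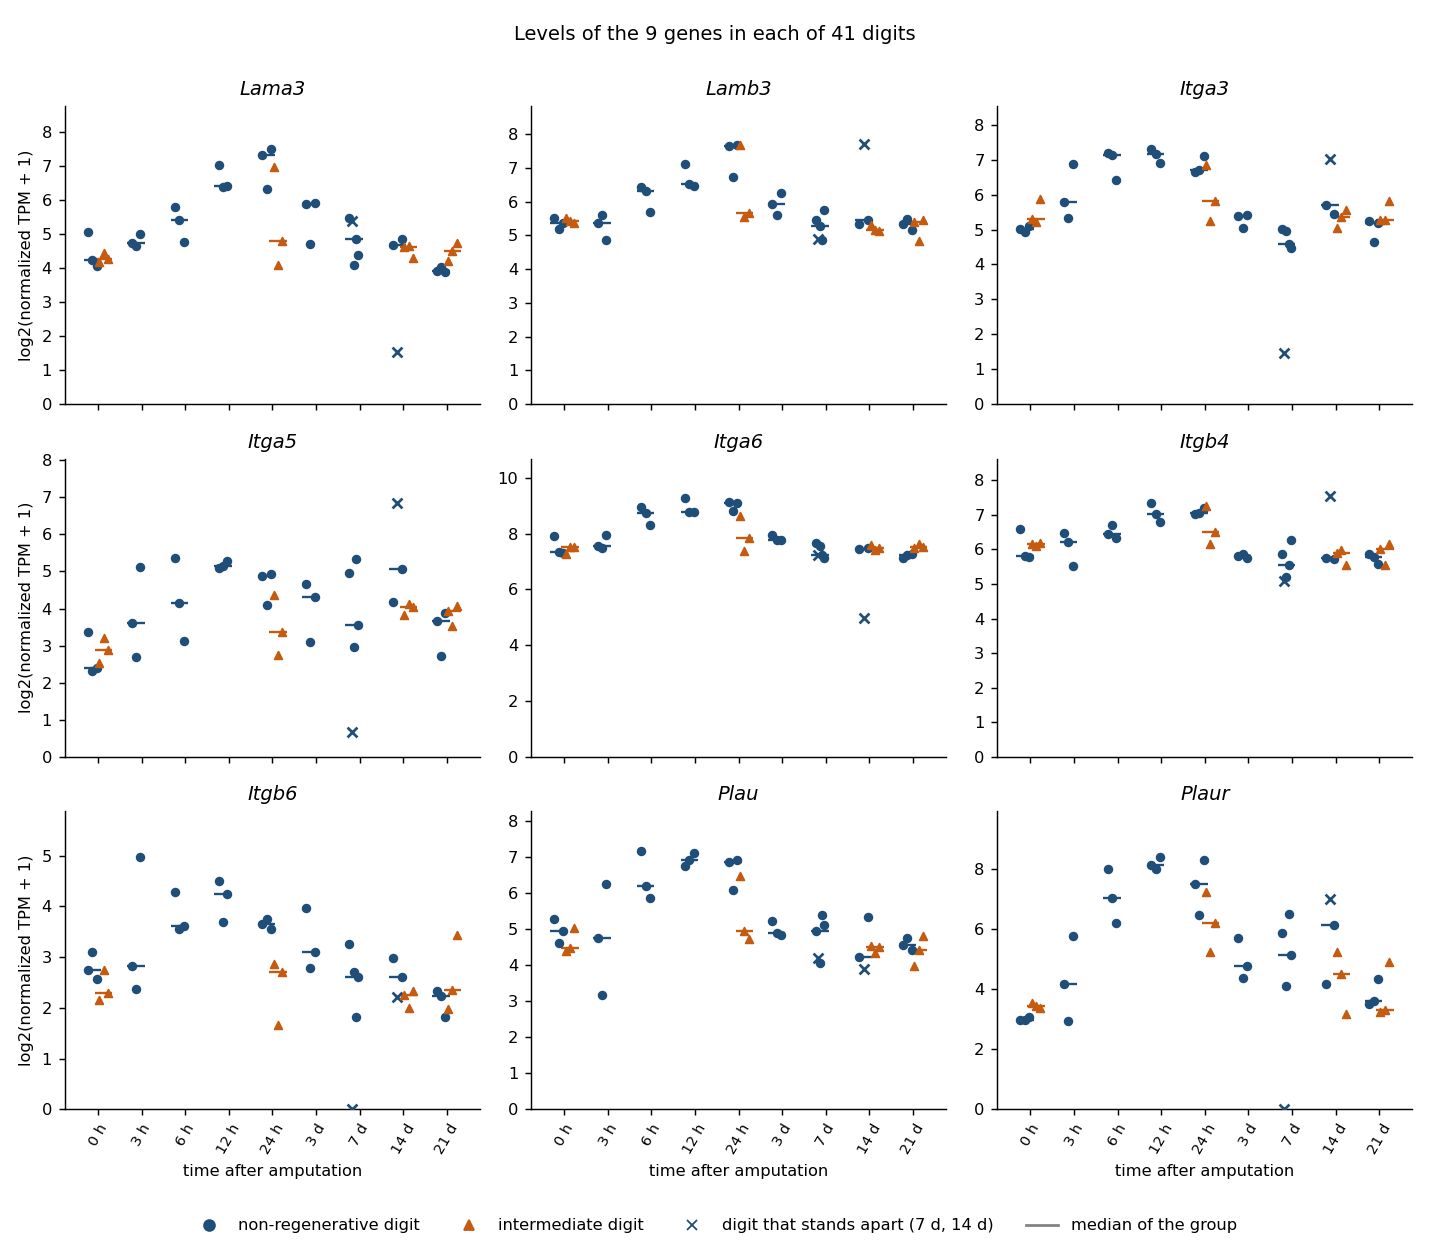
Normalized TPM of each of the 9 genes (y axis, log2 of the value plus 1) in every digit by time post-amputation (x axis), with circles for non-regenerative and triangles for intermediate digits, crosses for the 2 libraries that stood apart, and a short bar at each group median. Plaur went from 6.79 to 7.41 normalized TPM at 0 hours to between 257 and 339 at 12 hours in the non-regenerative digits, and 2 of the 3 intermediate digits at 24 hours sit low for most genes.

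Lama3 encodes the alpha 3 chain, which carries the integrin binding site of laminin-332, and lies on chromosome 18. Its normalized TPM, a level per transcript length scaled between libraries, was 32.2, 17.8 and 15.6 in the non-regenerative digits at 0 hours and 54.7, 41.4 and 26.1 at 6 hours. The digits at 6 hours overlapped those at 0 hours, and Lama3 was not called there (log2 fold change 0.90, SE 0.34, edgeR adjusted p = 0.151). At 12 hours it was at 129, 83.2 and 84.9, and at 24 hours at 158, 78.6 and 179, the last of which was its highest value in any digit. Every one of these 6 digits lay above all digits at 0 hours. The log2 fold change was 2.18 (SE 0.33, edgeR adjusted p = 0.00515) at 12 hours and 2.65 (SE 0.39, adjusted p = 0.00415) at 24 hours. By 3 days the digits held 58.4, 25.3 and 59.9, and by 21 days 14.2, 15.5 and 13.7, below each digit at 0 hours. The difference at 21 days did not pass the test (log2 fold change -0.63, SE 0.28, edgeR adjusted p = 0.722).

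Lamb3 encodes the beta 3 chain and lies at chr1:193207699-193343878 of GRCm38, where Hsd11b1 and G0s2 overlap it on the other strand, so that reads shared with them cannot be told apart here. It was at 44.4, 35.4 and 40.3 normalized TPM at 0 hours, 85.6, 77.8 and 50.8 at 6 hours and 201, 106 and 201 at 24 hours. The 3 digits at 0 hours lay close together, and every digit at 6, 12 and 24 hours lay above them. At 6 hours the difference passed the p threshold but not the 2-fold limit (log2 fold change 0.90, SE 0.22, edgeR adjusted p = 0.0483). Lamb3 rose by 1.46 (SE 0.24, edgeR adjusted p = 0.0063) on the log2 scale at 12 hours and by 2.18 (SE 0.28, adjusted p = 0.00243) at 24 hours. At 21 days it was at 39.6, 43.9 and 34.3, within the range of 0 hours but for 1 digit.

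The integrin genes for laminin binding had log2 fold changes below 2 at every time point. Itga6 encodes the α6 subunit, which pairs with β4 in hemidesmosomes and also with β1, and lies at chr2:71745616-71858416. It was at 238, 160.1 and 158 normalized TPM at 0 hours, the highest level per length of the 9 genes in each of these digits. It was at 498, 422 and 317 at 6 hours, 625, 434 and 437 at 12 hours and 559, 451 and 546 at 24 hours. All 9 of these digits lay above the 3 at 0 hours. The log2 fold change was 1.24 (SE 0.27, edgeR adjusted p = 0.0364) at 6 hours, 1.55 (SE 0.26, adjusted p = 0.00737) at 12 hours and 1.56 (SE 0.24, adjusted p = 0.00483) at 24 hours.

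Itgb4, the gene of the β4 subunit found in hemidesmosomes, lies at chr11:115974709-116008412. It was at 95.2, 55.2 and 54.2 normalized TPM at 0 hours and at 160.3, 130.2 and 111 at 12 hours. The digits at 6 hours, at 86.2, 104 and 80.1, were not called (log2 fold change 0.57, SE 0.19, edgeR adjusted p = 0.113). Its rise of 1.14 (SE 0.20, edgeR adjusted p = 0.00781) on the log2 scale at 12 hours was the smallest of the 9 at that time, and at 24 hours it was 1.24 (SE 0.18, adjusted p = 0.00415). At 3 days Itgb4 was at 55.7, 58.0 and 52.9, within or just below the range of 0 hours. The ratio of Itga6 to Itgb4 was 2.50 to 2.93 at 0 hours and 3.34 to 3.95 at 12 hours, with no overlap and without a test.

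Itga3 encodes α3, which pairs with β1 to bind laminin-332 outside hemidesmosomes, and lies at chr11:95044474-95076801 on the minus strand. Its levels were 31.3, 29.2 and 33.6 normalized TPM at 0 hours, 145, 139 and 83.9 at 6 hours and 156, 143 and 118 at 12 hours. At 6 hours 2 of the 3 digits were already within the range of 12 hours. Its log2 fold change was 1.75 (SE 0.29, edgeR adjusted p = 0.0171) at 6 hours, 1.90 (SE 0.26, adjusted p = 0.00327) at 12 hours and 1.70 (SE 0.22, adjusted p = 0.0025) at 24 hours. At 3 days it was at 41.2, 31.8 and 41.3 (log2 fold change -0.10, SE 0.25, edgeR adjusted p = 0.918). Per transcript length, Itga3 went from 0.329 to 0.621 of the Itgb4 level at 0 hours to 1.05 to 1.68 of it at 6 hours.

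The receptors of the provisional matrix were low at 0 hours. Itga5 encodes α5, the fibronectin receptor subunit, and lies at chr15:103344286-103366763 on the minus strand. It was at 9.39, 3.98 and 4.28 normalized TPM at 0 hours, 40.2, 16.8 and 7.70 at 6 hours and 33.2, 34.5 and 37.7 at 12 hours. The digits at 6 hours spread widely and overlapped those at 0 hours, whereas those at 12 hours lay close together. The log2 fold change of 1.93 (SE 0.59, edgeR adjusted p = 0.0875) at 6 hours was not called, and those of 2.66 (SE 0.31, adjusted p = 0.00191) at 12 hours and 2.16 (SE 0.38, adjusted p = 0.00776) at 24 hours were. Itga5 stayed uneven at later times, with 0.603 to 39.1 over the 5 digits at 7 days and 17.1, 114 and 32.6 at 14 days. Every digit at 14 days lay above those at 0 hours, but the difference was not called (log2 fold change 2.80, SE 0.70, edgeR adjusted p = 0.288). The lowest digit at 7 days and the highest at 14 days are the libraries that stood apart.

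Itgb6, whose β6 subunit pairs with αv to bind fibronectin and tenascin and to activate latent TGF-β, lies at chr2:60598292-60722643 on the minus strand. It had the lowest level per length at 12 hours of the 9 genes. Its values were 5.69, 7.53 and 4.93 normalized TPM at 0 hours, 18.5, 10.8 and 11.2 at 6 hours, 21.7, 11.9 and 17.9 at 12 hours and 11.5, 12.5 and 10.7 at 24 hours. Each of the 9 later digits lay above those at 0 hours. The log2 fold change was 1.28 (SE 0.21, edgeR adjusted p = 0.0171) at 6 hours, 1.71 (SE 0.27, adjusted p = 0.00605) at 12 hours and 1.06 (SE 0.21, adjusted p = 0.0117) at 24 hours. The call at 24 hours was lost without replicate 3 at 0 hours or without replicate 1 at 24 hours. At 21 days it was at 4.02, 3.68 and 2.53, below each digit at 0 hours (log2 fold change -0.80, SE 0.26, edgeR adjusted p = 0.486).

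Plaur had the largest fold changes of the 9 genes at 6, 12 and 24 hours, and Plau was called at the same times. Plau encodes urokinase and lies at chr14:20836660-20843385. It was at 37.6, 23.6 and 29.6 normalized TPM at 0 hours, 141, 72.6 and 57.2 at 6 hours, 107, 119 and 137 at 12 hours and 116, 67.1 and 119.8 at 24 hours. All 9 later digits lay above those at 0 hours. The log2 fold change was 1.63 (SE 0.33, edgeR adjusted p = 0.0314) at 6 hours, 2.06 (SE 0.20, adjusted p = 0.000828) at 12 hours and 1.80 (SE 0.26, adjusted p = 0.0041) at 24 hours. At 3 days it was back at 36.4, 28.7 and 27.5 (log2 fold change 0.05, SE 0.22, adjusted p = 0.962).

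Plaur, the urokinase receptor gene at chr7:24462484-24475968 whose promoter is printed above, was at 6.79, 6.94 and 7.41 normalized TPM at 0 hours. It was at 17.0, 6.72 and 53.7 at 3 hours, 255, 131 and 72.7 at 6 hours, 280.4, 257 and 339 at 12 hours and 179.5, 87.2 and 314 at 24 hours. From 6 to 24 hours each of the 9 digits was far above the narrow range of 0 hours. Its mean normalized count went from 33.4 ± 9.19 (SD, n = 3) at 0 hours to 1124 ± 278 (SD, n = 3) at 12 hours. The log2 fold change was 4.09 (SE 0.41, edgeR adjusted p = 0.00318) at 6 hours, 5.09 (SE 0.29, adjusted p = 0.000186) at 12 hours and 4.49 (SE 0.41, adjusted p = 0.000503) at 24 hours. At 3 hours it was 2.26 (SE 0.74, edgeR adjusted p = 0.381), and the highest of those 3 digits is the shallowest library, with 79 expected counts of Plaur. At 3 days the digits held 51.0, 19.8 and 26.1, all above 0 hours, and the gene was not called (log2 fold change 2.13, SE 0.45, edgeR adjusted p = 0.0903), but it was called without replicate 2 at 3 days. At 7 days it ranged from 0 to 90.4 with a median of 34.3 over 5 digits, and it was called there without replicate 2, a library with no count of Plaur or Itgb6 among 6119869, whose count of 0 allows a level of up to 0.490 CPM. Per length, Plaur was at 0.180 to 0.294 of Plau at 0 hours, at 2.16 to 2.62 at 12 hours and at 0.428 to 0.955 at 21 days. Plaur was below Plau in each digit at 0 hours and above it in each at 12 hours, without a test of the ratio.

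**Figure D2:**
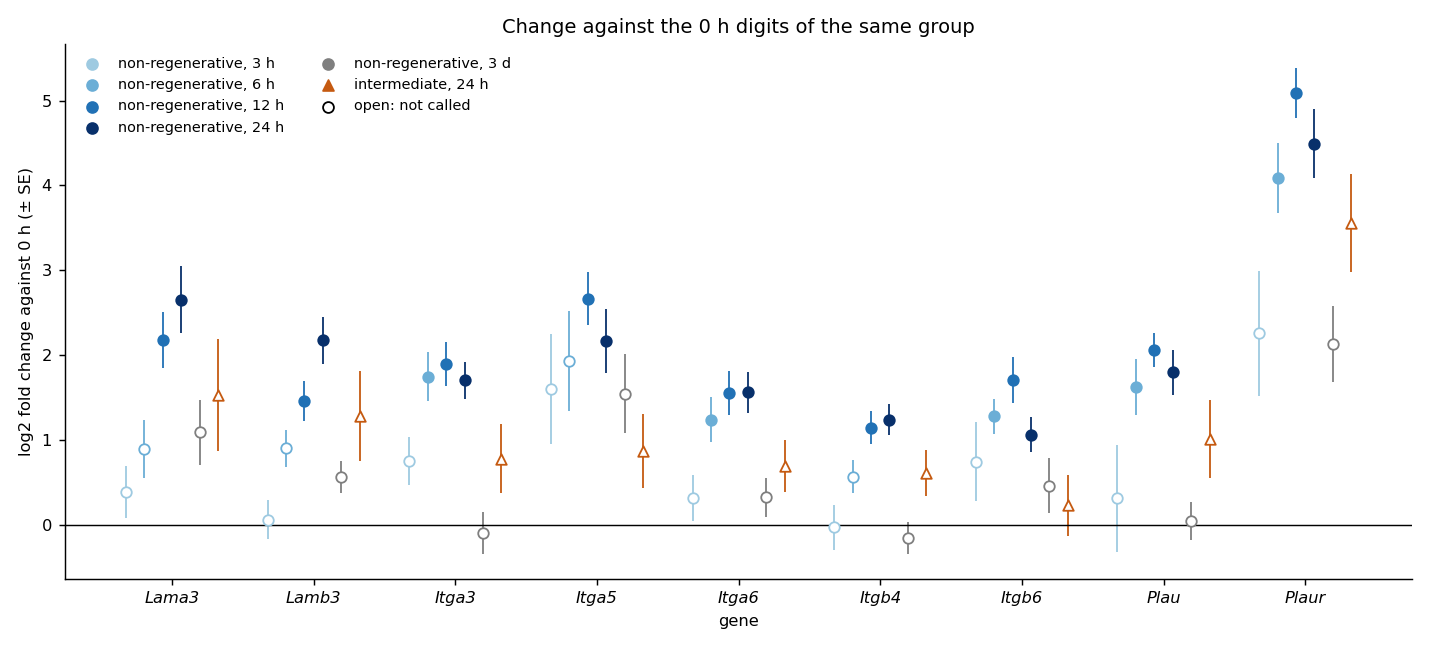
Log2 fold change against 0 hours of each of the 9 genes (x axis), with standard errors as bars, in non-regenerative digits at 3, 6, 12 and 24 hours and 3 days (circles) and in intermediate digits at 24 hours (triangles). Filled symbols were called and open ones were not: Plaur peaked at 5.09 at 12 hours and Itgb4 at 1.24 at 24 hours, and no intermediate value is filled.

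Other genes of the same pathway were read in 4 lists. At 6, 12 and 24 hours 3.23%, 6.76% and 5.57% of all genes were called higher in the non-regenerative digits. Of 8 tested genes of the plasminogen system, 2 were called higher at 6 hours and 4 each at 12 and 24 hours, and none lower, with a median log2 fold change of 0.81 at 12 hours. They included the plasminogen activator inhibitor gene Serpinb2, with a log2 fold change of 3.24 (SE 0.22, edgeR adjusted p = 0.000136) at 24 hours, and the plasminogen-binding Anxa2, with 1.43 (SE 0.18, adjusted p = 0.00213). Among 10 other integrin subunits, 2 were called higher at 12 hours and 1 lower, with a median of 0.44, where 6.76% of all genes were called higher and 4.64% lower. These were Itga2, a collagen receptor subunit, at 2.86 (SE 0.34, edgeR adjusted p = 0.00198), Itgb1, the partner of Itga3 and Itga5, at 1.63 (SE 0.25, adjusted p = 0.00558), and Itgb5 at -1.18 (SE 0.16, adjusted p = 0.00365).

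At 12 hours the median log2 fold change of the 12 laminin and hemidesmosome partners was 0.11. Of these partners 3 were called higher and 2 lower, against 6.76% and 4.64% of all genes. They included Fermt1, the kindlin that activates integrins in keratinocytes, at 1.49 (SE 0.18, edgeR adjusted p = 0.00198), and the anchoring fibril collagen gene Col7a1 at -1.20 (SE 0.19, adjusted p = 0.00571). At 24 hours 2 were called higher and 2 lower, against 5.57% and 5.14% of all genes, with Lamb2, a laminin chain of other basement membranes, at -1.27 (SE 0.18, edgeR adjusted p = 0.00375). Of 8 tested ligands and substrates, 3 were called higher and 1 lower at 12 hours, against 6.76% and 4.64% of all genes, with a median of 0.64. In the intermediate digits at 24 hours none of the 4 lists held a call, where 0.0152% of all genes were called higher. Tnc, the gene of the provisional matrix protein tenascin C, was at 4.11 (SE 0.35, edgeR adjusted p = 0.000551) at 12 hours and still called at 3 days, at 3.36 (SE 0.37, adjusted p = 0.00571). Spp1, the gene of osteopontin, was at 1.99 (SE 0.37, edgeR adjusted p = 0.0108) at 12 hours, and Fgg, with no count at 0 hours, was called as well and is given no fold. Tgfb3 was called lower at 24 hours at -1.09 (SE 0.24, edgeR adjusted p = 0.0186).

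Over all 9 time points of the non-regenerative digits, 7 of the 9 genes differed with time at an adjusted p below 0.05 (edgeR's quasi-likelihood F test), where 7.62% of all genes did. The smallest adjusted p was that of Lamb3 at 0.000479, and Itga5 at 0.293 and Itgb6 at 0.121 did not pass. Without the 2 libraries that stood apart, 8 of 9 passed, against 20.4% of all genes, with Itgb6 at an adjusted p of 0.0014 and Itga5 at 0.116. Among the late times, 0 of the 9 genes were called at 7, 14 or 21 days by edgeR's 2-group tests, where 0.0307%, 0% and 0.394% of all genes were called higher. The numbers at an unadjusted p below 0.05 were 0, 2 and 1 of 9, against 4.34%, 7.7% and 7.2% of all genes. At 14 days DESeq2 called Itga5 and Plaur, with its share of all genes not given, and limma called none. The edgeR fit of all 41 digits called Itga5 and Plaur at 14 days without and with the date period, against 4.46% and 5.1% of all genes called higher, and a fit without the 2 libraries that stood apart called neither there but called Plaur at 7 days, against 1.19%. Plaur at 14 days was at 17.1, 128 and 69.8 normalized TPM (log2 fold change 2.95, SE 0.66, edgeR adjusted p = 0.249). The library at 128 is the one that stood apart, and there Lama3 was at 1.92 and Lamb3 at 207.

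With the date periods kept apart, every digit at 24 hours lay above every digit at 0 hours of the same period for all 9 genes. At 3 hours, in the earlier period (3 digits against 1), this held for 1 gene, and the median ratio of mean normalized TPM was 0.960. At 6 hours it held for 8 genes in the earlier period (2 against 1, median ratio 2.57) and for 9 in the later one (1 against 2, median ratio 1.86). At 12 hours, where all 3 digits carry earlier dates, they were set against the 1 such digit at 0 hours, and all 9 genes were higher, with ratios from 1.41 to 43.1 and a median of 3.08. At 24 hours all 9 were higher in the earlier period, by 1.45 to 36.3 times (2 digits against 1), and in the later period, by up to 12.2 times with a median of 2.83 (1 against 2). These ratios rest on too few digits for a test. In 1 edgeR fit of all 41 digits with the period as a term, 4 genes were called at 24 hours (Lama3, Lamb3, Itga6 and Plaur), against 1.54% of all genes called higher, 1 at 12 hours (Plaur), against 1.34%, and 1 at 6 hours (Plaur), against 0.667%. The same fit without the period called 5 at 12 hours and 5 at 24 hours, against 1.88% and 1.55% of all genes. Without the 2 libraries that stood apart, a fit of 39 digits called 6, 9 and 8 of the 9 at 6, 12 and 24 hours, against 2.66%, 4.76% and 4.04%.

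In the intermediate digits most of these genes were high in 1 of the 3 digits at 24 hours. Against the intermediate digits at 0 hours, edgeR called 0 of 9 at 24 hours, where 0.0152% of all genes were called higher, while all 9 log2 fold changes were above 0, with a median of 0.88 against 0.00 for all genes. At an unadjusted p below 0.05 there were 3 (Lama3, Lamb3 and Plaur), where 15.4% of all genes were. DESeq2 called Plaur, with its share of all genes not given, and limma called none. Plaur was also called by edgeR without the count filter, against 0.302% of all genes called higher, with the date period as a term, against 0.85%, and in the fit of 39 digits, against 0.533%. Lama3 was at 17.2, 20.7 and 18.4 normalized TPM at 0 hours and at 124, 16.0 and 26.6 at 24 hours (log2 fold change 1.53, SE 0.66, edgeR adjusted p = 0.321). Lamb3 was at 44.4, 42.1 and 40.3 and then at 204, 45.4 and 49.6 (log2 fold change 1.28, SE 0.53, edgeR adjusted p = 0.303). In both genes replicate 1 at 24 hours matched the level of the non-regenerative digits, and replicates 2 and 3 were near 0 hours.

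All 3 intermediate digits at 24 hours lay above those at 0 hours for 3 of the 9 genes (Lamb3, Itgb4 and Plaur). The same held for 1546 of 13172 genes tested. Plaur was at 10.8, 9.90 and 9.32 normalized TPM at 0 hours and at 151, 37.0 and 73.7 at 24 hours (log2 fold change 3.56, SE 0.58, edgeR adjusted p = 0.0957). It was called without replicate 1 or without replicate 2 at 24 hours. Plau was at 19.9, 21.2 and 31.6 at 0 hours and at 86.9, 29.7 and 25.1 at 24 hours, where only replicate 1 was above that range (edgeR adjusted p = 0.338). The integrin genes had log2 fold changes of 0.23 (Itgb6) to 0.88 (Itga5) at 24 hours.

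At 14 days 1 of 9 was called in the intermediate digits, against 1.49% of all genes called higher. It was Itga5, at 4.79, 8.20 and 6.33 normalized TPM at 0 hours and 13.3, 16.4 and 15.5 at 14 days, with no overlap (log2 fold change 1.21, SE 0.23, edgeR adjusted p = 0.0422). This call was kept in 1 of 6 fits that left out a digit, the one without replicate 1 at 14 days. The fibroblast markers Col1a1 and Lum were called higher in the same comparison, at 4.07 (SE 0.47, edgeR adjusted p = 0.00652) and 2.53 (SE 0.38, adjusted p = 0.0155), and their part in the Itga5 level was not tested. At 21 days 0 of 9 were called by edgeR, against 1.23% of all genes higher, with Itga5 at 14.3, 10.5 and 15.7 (log2 fold change 1.05, SE 0.25, edgeR adjusted p = 0.0716) the only one at an unadjusted p below 0.05, where 16.6% of all genes were. DESeq2 called Itga5 at 21 days, with its share of all genes not given. So did edgeR without the count filter, against 1.4% of all genes higher, and limma called none. The F test over the 4 intermediate time points passed for 2 of 9 genes, Itgb4 (adjusted p = 0.0492) and Plaur (adjusted p = 0.0108), where 6.21% of all genes passed.

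Set directly against each other at 24 hours, the intermediate digits were lower than the non-regenerative digits in the fitted value of all 9 genes, and edgeR called none of them and 0% of all genes. At an unadjusted p below 0.05 were 4 of the 9, against 11.3% of all genes. DESeq2 called Itgb6, with its share of all genes not given, while limma called none. With the date period as a term, edgeR again called 0 of 9 and 0% of all genes lower, with 7 of 9 at an unadjusted p below 0.05, against 10.3% of all genes. Itgb6 was at 6.24, 2.15 and 5.56 normalized TPM in the intermediate and 11.5, 12.5 and 10.7 in the non-regenerative digits, with no overlap (log2 fold change -1.49, SE 0.30, edgeR adjusted p = 0.272). Itga6 was at 397, 167 and 228 against 559, 451 and 546, again with no overlap (log2 fold change -0.97, SE 0.32, edgeR adjusted p = 0.376). In 8.55% of all genes every intermediate digit lay below every non-regenerative digit, as in these 2 of the 9, and the other 7 overlapped through intermediate replicate 1, as the plot of the digits at 24 hours shows.

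Leaving out that digit changed the comparison. Without it, 8 of the 9 genes (all but Itgb4) were called lower in the intermediate digits by edgeR, against 2.48% of all genes called lower, with log2 fold changes from -1.41 for Itga6 to -2.72 for Lama3 and adjusted p from 0.00713 to 0.0289. Leaving out this digit also leaves both intermediate digits in the later period, while 2 of the 3 non-regenerative digits carry earlier dates, so level and period can then hardly be told apart. Within the later period, with 2 intermediate digits against 1, all 9 genes were lower in the intermediate digits, at 0.271 to 0.634 times the non-regenerative level. Within the earlier period, with 1 digit against 2, the ratios ran from 0.561 to 1.10. The 3 intermediate digits at 24 hours are labelled 41%, 50% and 52% in the order given, and the non-regenerative digits 63%, 68% and 73%.

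**Figure D3:**
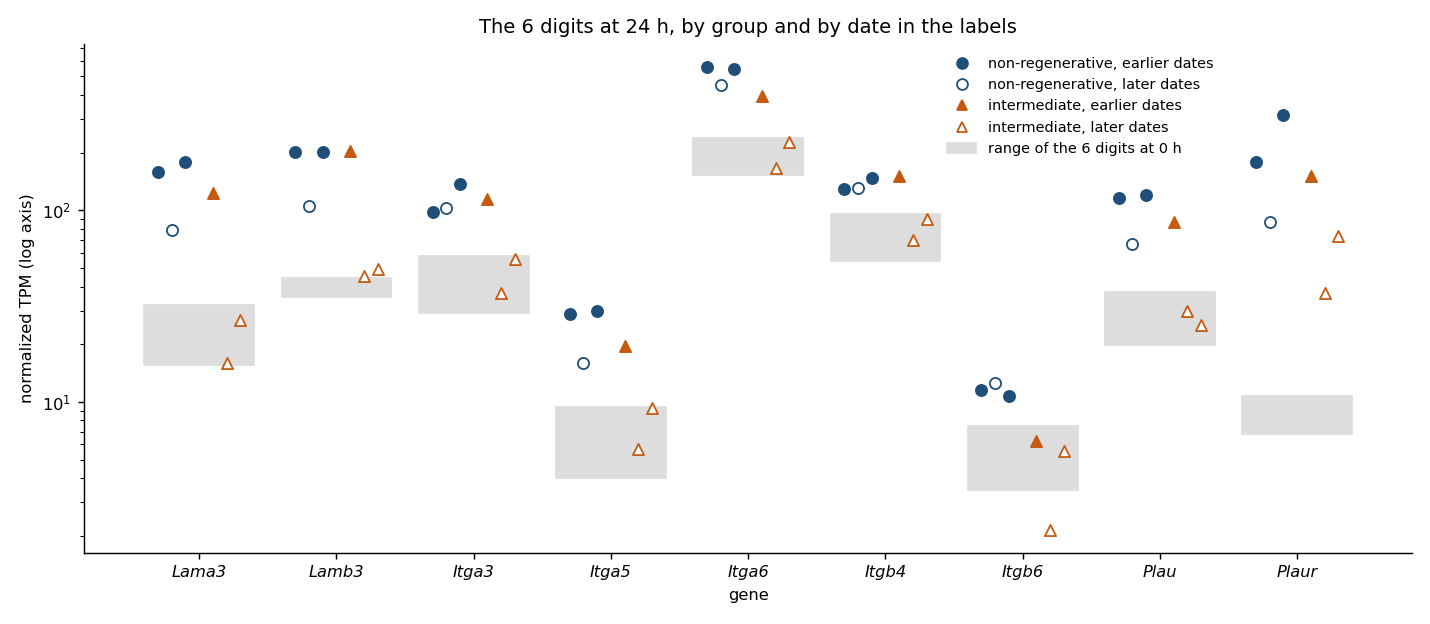
Normalized TPM of the 9 genes (log axis) in each of the 6 digits at 24 hours, with circles for non-regenerative and triangles for intermediate digits, filled for earlier and open for later dates, and grey boxes for the range of the 6 digits at 0 hours. Intermediate replicate 1, at 124 for Lama3 and 204 for Lamb3, lies among the non-regenerative digits, and replicates 2 and 3 lie below them for most genes.

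At 0 hours, 14 days and 21 days edgeR called none of the 9 between intermediate and non-regenerative digits, where 0%, 0% and 0.0437% of all genes were called higher and 0%, 0% and 0.604% lower, and neither DESeq2 nor limma called any of the 9. At an unadjusted p below 0.05 there were 1, 1 and 2 of 9 at these times, against 3.64% of all genes at 0 hours, 270 of 13421 genes at 14 days and 14% at 21 days. At 21 days all 3 intermediate digits carry earlier dates and all 3 non-regenerative digits later ones, so group and period cannot be told apart there. The change from 0 to 24 hours was tested between the groups as an interaction in edgeR. It was smaller in the intermediate digits for all 9 genes in the fitted value, by -0.63 (Itgb4) to -1.29 (Itga5) on the log2 scale, and none passed, with adjusted p from 0.612 to 0.719 and 0% of all genes called. None of the 9 was at an unadjusted p below 0.05 in this test, where 8.09% of all genes were. On the labelled level, over all 41 digits with time in the model, edgeR found no slope that passed for the 9 genes or for any gene (0%), with 0 of 9 and 8.3% of all genes at an unadjusted p below 0.05. The steepest was that of Plaur, 0.28 (SE 0.15, adjusted p = 0.627) on the log2 scale per 10 percentage points.

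Markers of several cell types moved at the same times as the 9 genes. At 6, 12 and 24 hours 3.23%, 6.76% and 5.57% of all genes were called higher. The 4 wound-edge keratins (Krt6a, Krt6b, Krt16 and Krt17), which activated keratinocytes make, were all called higher at each of these times. Their summed level went from 1441 to 1739 normalized TPM at 0 hours to between 9667 and 10713 at 6 hours and between 36293 and 45489 at 24 hours. In the intermediate digits at 24 hours this sum was 47379, 4823 and 10593, so replicate 1 was high here too. The 4 basal keratinocyte markers summed to between 7486 and 8570 at 0 hours and between 17091 and 20517 at 24 hours, when Krt14 was called higher and Krt15 lower. Itga6 was at 0.0622 to 0.108 of the level of the basal keratin gene Krt5 at 0 hours and at 0.158 to 0.247 of it at 24 hours, with no overlap and without a test. Krt5 is among these 4 markers, and the ratio to it does not stand for the others. On the log2 scale at 24 hours Krt14 rose by 1.69 (SE 0.25, edgeR adjusted p = 0.00415), against 1.56 for Itga6, and Krt15 was at -4.19.

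Neutrophil markers rose at these times too. Of 5 markers, 3 of the 4 tested were called higher at 6 hours, against 3.23% of all genes. At 12 hours 5 of 5 were, against 6.76%, and at 24 hours 3 of 4, against 5.57%. The summed level was 20.1 to 23.9 normalized TPM at 0 hours, 406 to 1135 at 12 hours and 1134 to 1296 at 24 hours, and 1346, 139 and 413 in the intermediate digits at 24 hours. None of the 5 macrophage markers was called higher at 6, 12 or 24 hours, C1qa was called lower at 6 hours, and their sum was 41.4 to 78.1 at 0 hours, 42.5 to 62.5 at 12 hours and 31.7 to 68.8 at 24 hours. S100a8 of the neutrophil list had no more than 3 counts in any digit at 0 hours, and no macrophage marker was at 0 in all digits of a group. Which cells of the wound bed held S100a8 and S100a9 was not tested, so the sum does not count neutrophils. Among 4 suprabasal keratinocyte markers Krt1 was called lower at 12 hours, and their sum was 19630 to 47368 at 0 hours and 10788 to 29284 at 24 hours. Of 4 endothelial markers Cdh5 was called higher at 24 hours, with sums of 40.6 to 88.2 at 0 hours and 47.7 to 68.9 at 24 hours. Of 4 fibroblast markers Col1a1 was called lower at 12 and 24 hours, and the sum was 493 to 1062 at 0 hours and 270.0 to 546 at 24 hours. None of the 3 skeletal muscle markers passed the count filter. The part of any of these cell types in the rise of the 9 genes was not tested.

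The deposited macrophage libraries give the level of the 9 genes in cultured macrophages. They are bone marrow-derived macrophages of female C57BL/6 mice aged 6 to 8 weeks, either untreated (M0), treated with IFN-γ at 20 ng/ml and LPS at 100 ng/ml (M1), or treated with IL-4 at 20 ng/ml (M2), with 3 libraries each. They were normalized separately from the digits, so levels of the 2 tissues were not tested against each other. Plaur had a median of 24.2 normalized TPM in M0, 214 in M1 and 109 in M2, and Itga5 had 35.5, 553 and 64.0. Plau was at 51.8, 50.8 and 199, and Itga6 at 197, 22.9 and 33.5. Lamb3, Itgb4 and Itgb6 were near or at 0, with Lamb3 at most 1.06, Itgb4 at most 0.0786 and Itgb6 with no more than 3 counts in any library. Lama3 was at 7.23 in M0 and 0.432 and 0.225 in M1 and M2, and Itga3 at 3.02, 1.36 and 1.95. The plot of the macrophage levels thus separates Itga5, Itga6, Plau and Plaur, which these cells held, from Lamb3, Itgb4 and Itgb6, which were at or near 0 in them.

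**Figure D4:**
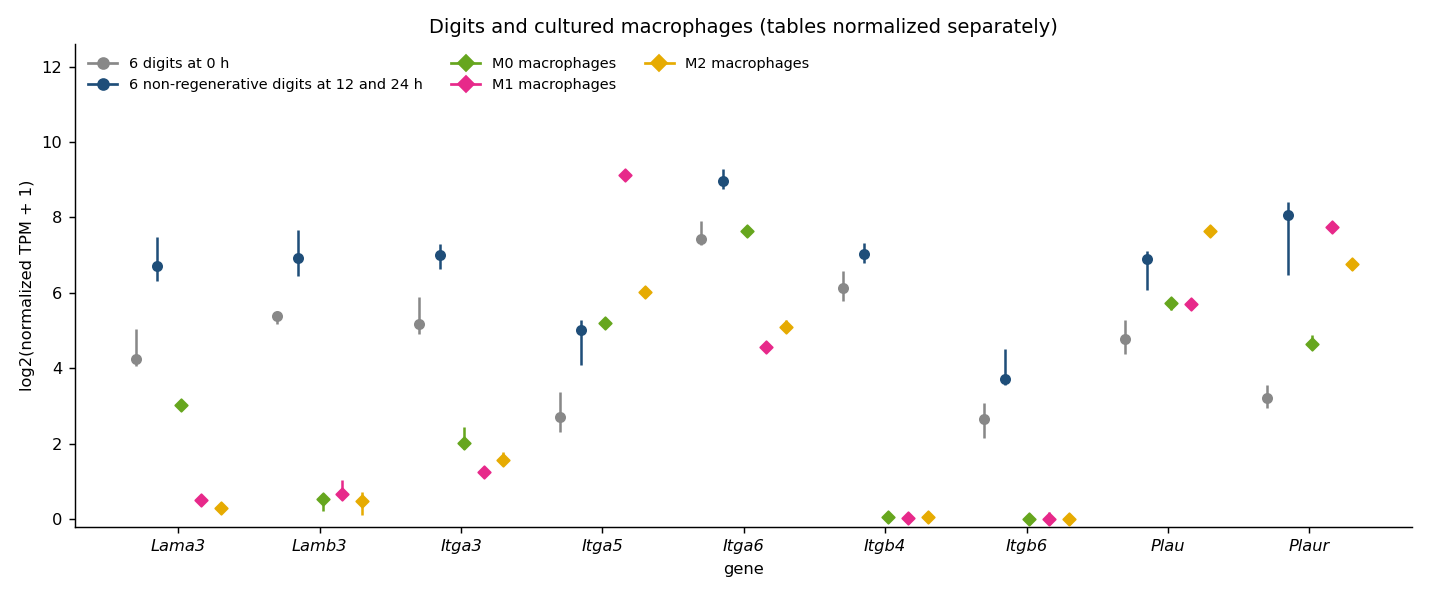
Normalized TPM of the 9 genes (y axis, log2 of the value plus 1) as the median with a bar from lowest to highest, in the 6 digits at 0 hours, the 6 non-regenerative digits of the 12 and 24 hour groups, and the M0, M1 and M2 macrophages (3 libraries of each), which were normalized apart from the digits. Among the macrophages Itga5 and Plaur are highest in M1, at medians of 553 and 214, Plau in M2 at 199 and Itga6 in M0 at 197, and Itgb4 and Itgb6 lie at or near 0 in all 9 libraries.

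Across the 41 digits the 9 genes followed each other unevenly. Spearman's rho between their normalized TPM ranged from 0.278 to 0.827 over the 36 pairs, with a median of 0.576, and without the 2 libraries that stood apart from 0.161 to 0.844 with a median of 0.629. These digits share time points, dates and the scaling of each library, so rho is given as a description. Among 13691 genes with a mean of at least 1 normalized TPM, the gene most like Lama3 was Dsg3, a desmosomal cadherin of keratinocytes (rho 0.916), and Dsg3 was also the gene most like Itga6 (rho 0.851). The gene most like Itgb4 was Lamb3 (rho 0.827), and the one most like Itgb6 was Itga6 (rho 0.814), both among the 9. Itga5 was most like Fscn1, the actin-bundling fascin (rho 0.898), and Plaur most like the tubulin gene Tubb6 (rho 0.879). Plau was closest to Cass4 (rho 0.809), with Csf3r, the neutrophil cytokine receptor gene of the marker list, among its closest 3. Lamb3 was closest to Rps6ka4 (rho 0.847) and Itga3 to Trex1 (rho 0.825).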

How the data were processed

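Wound bed RNA of 29 non-regenerative and 12 intermediate digits and of 9 macrophage cultures was analysed, with groups, levels and dates taken from the sample labels. The authors selected polyadenylated RNA, sequenced single-end reads of 65 bases, mapped them with Bowtie to mouse transcripts of GRCm38 with up to 2 mismatches, and deposited gene-level expected counts made with RSEM 1.2.3 (version per the submitters' processing notes). Also deposited was a signal called normalized TPM here, which is TPM rescaled per library by the authors with median-by-ratio factors. Such scaling and a level per transcript length can shift when a gene's isoforms shift, and the tests used the counts instead. Totals ran from 1468749 to 13011782 expected counts per digit and from 15683424 to 27904773 per macrophage library. The limit given for a gene without counts is 3 counts of that library and covers counting error only. Of the 21954 gene names, 26 read as dates and were restored.

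Comparisons of 2 groups used edgeR 4.0.16 in R 4.3.3 (filterByExpr, TMM, glmQLFit, glmQLFTest) on the rounded counts of their digits. Calls needed an adjusted p (Benjamini-Hochberg) below 0.05 over all genes tested, with a change of more than 2-fold in the mean normalized count plus 1. The study's own tool, EBSeq, was not installed. Changes were also tested over all time points of a group, between groups as an interaction, and along the labelled level. Alternatives were RLE size factors, no count filter, DESeq2 1.42.0, limma 3.58.1 on log2(normalized TPM + 1), no fold limit, joint fits of 41 digits with and without the date period, and leaving out each digit in turn. A joint fit of 39 digits, without the 2 that stood apart, and 2-group fits with the date period as a term were added after seeing the data. The 2-group edgeR test was also run on simulated counts for 12 against 0 hours in the non-regenerative digits. It called 7% of 100 genes changed 2-fold and 79% of 100 genes changed 4-fold. A gene without a call can therefore still differ. A true 2-fold change sits on the fold limit, so many such genes go uncalled by that rule. The changed genes were picked above a count floor, and no other comparison was simulated. Replicate numbers only name the digits.

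The 9 genes and the lists were chosen with earlier results of these data known. All 9 are described. From each other list at most the 3 genes with the smallest adjusted p per comparison are named, and for each of the 9 genes the most alike were taken by Spearman's rho. Markers are the lists for basal, suprabasal and wound-edge keratinocytes, neutrophils, macrophages, endothelial cells, fibroblasts and skeletal muscle. Some genes of the lists are not reported here. Figures were drawn with Matplotlib 3.10.9. Promoters come from RefSeq.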

Additional observations from a re-analysis of the deposited data

How the results depend on the processing

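Over the 8 non-regenerative comparisons with 0 hours, edgeR made 23 calls among the 9 genes and 3731 over all genes. The joint fit of 41 digits made 13 (1831 over all genes), and with the date period as a term 8 (1861). With the period as a term in each 2-group fit there were 25 (3751). The other alternatives gave 17 with limma (2677) to 28 with DESeq2 (6370), and leaving out 1 digit gave 18 to 24. Over the 3 intermediate comparisons with 0 hours there was 1 call, against 3 without the count filter, 4 with DESeq2, 0 with limma and 0 in both fits of 41 digits, 2 with the period in each 2-group fit, and 0 to 2 when 1 digit was left out. Between the groups there were 0 calls, 1 with DESeq2 (Itgb6 at 24 hours), and 0 to 8 when 1 digit was left out, the 8 without intermediate replicate 1 at 24 hours. The time test in the non-regenerative digits passed for 7 genes and for 6 to 9 under the alternatives. In the intermediate digits it passed for 2, for 5 with DESeq2 and for 3 with the date period. The tests of interaction and level passed for 0 genes under every alternative run. Of the 24 called values 0 changed sign under any alternative.

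At 6 hours the calls of Itga3, Itgb6 and Plau were lost without replicate 2 or 3 at 0 hours or replicate 2 at 6 hours, and that of Itga6 also without replicate 1 at 6 hours. The cause was not tested. No paired analysis was possible because replicate numbers are missing from the digits' labels, and the date period was used as a term in its place. Between the groups at 21 days that term could not be fitted, since period and group are the same split. Depth was 1468749 to 13011782 counts per digit with 3 digits in most groups, and the fold limit leaves differences of less than 2-fold uncalled. Larger differences can go uncalled too, since 79% of 4-fold changes were called in the data simulated for 12 against 0 hours.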
